A study of Rattus norvegicus with 9 samples.

Results

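The GDNF family comprises 4 secreted ligands (*Gdnf*, *Nrtn*, *Artn* and *Pspn*), 4 co-receptors anchored to the cell surface (*Gfra1* to *Gfra4*) and the receptor tyrosine kinase *Ret*. These 9 genes were chosen by symbol from the 32883 genes in the deposited tables, and 8 were found by symbol. *Gfra1* was listed there under a clone name (AABR07007068.1, ENSRNOG00000017438), and was matched through its Entrez gene number, 25454, which RefSeq assigns to *Gfra1*. That row lies on the minus strand at chr1:279207586-279277339 of rn6, between *Atrnl1* and *Ccdc172*, and RefSeq places *Gfra1* between the same neighbours.

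RNA was sequenced from 9 samples of cultured wild-type Lewis rat fibroblasts, with 3 each from epineurium (Fb-Epn), nerve parenchyma (Fb-Par) and skin (Fb-Skn). Sciatic nerves of 2 male rats gave both nerve types and abdominal skin of 1 further male rat gave Fb-Skn, all aged 10 weeks. The cells grew in DMEM/F-12 with fetal bovine serum, received no other treatment named in the labels, and were sampled after 1 passage. Library totals ranged from 10084584 to 12310506 counts. Since so few rats cannot supply 3 animals per type, p-values measure the spread between samples, which may be technical. For nerve against skin, tissue, rat and body site cannot be told apart.

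GDNF family ligands are survival and growth factors for sensory, motor and autonomic neurons. Each ligand binds a preferred co-receptor, *Gdnf* with *Gfra1*, *Nrtn* with *Gfra2*, *Artn* with *Gfra3* and *Pspn* with *Gfra4*, and the complex activates RET. Schwann cells of injured nerves are known to produce GDNF, and NCAM1 and syndecan 3 can receive GDNF without RET.

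Levels are given as TPM, a measure scaled for gene length and library size, so that levels of different genes can be compared. For each pair of types, edgeR compared the counts of the 13273 genes that passed its expression filter, and genes past a Benjamini-Hochberg adjusted p of 0.01 are called different. Of the 9 genes, 7 passed the filter, while *Nrtn* and *Pspn* had too few counts and were not tested. A gene with few counts in most libraries passes that filter through the type where it is high, so its calls and the counts of called genes below are descriptions. In these bulk samples, fewer cells of a type that express a gene and less RNA per cell cannot be told apart.

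Between Fb-Epn and Fb-Skn, *Artn*, *Gfra1* and *Gfra2* were higher and *Gfra4* was lower in Fb-Epn. These 4 of 7 tested genes stand beside 43.9% of all tested genes called in this comparison. Of them, *Gfra1* and *Gfra4* differed by more than 4-fold, a log2 fold change beyond 2, as did 8.44% of all tested genes. Between Fb-Epn and Fb-Par, *Artn* was higher in Fb-Epn, whereas *Ret* and the 4 co-receptors were lower. That made 6 of 7 tested genes, beside 38.8% of all tested genes, and 3 of them (*Artn*, *Gfra3* and *Ret*) exceeded 4-fold, beside 6.48%. Between Fb-Par and Fb-Skn, *Gfra1*, *Gfra2* and *Ret* were higher and *Gdnf*, *Artn* and *Gfra4* were lower in Fb-Par. Here 6 of 7 tested genes were called, beside 45.6%, and 5 exceeded 4-fold, beside 8.54%. The comparisons share libraries, and with so few genes no share is read as particular to the family.

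**Figure D1:**
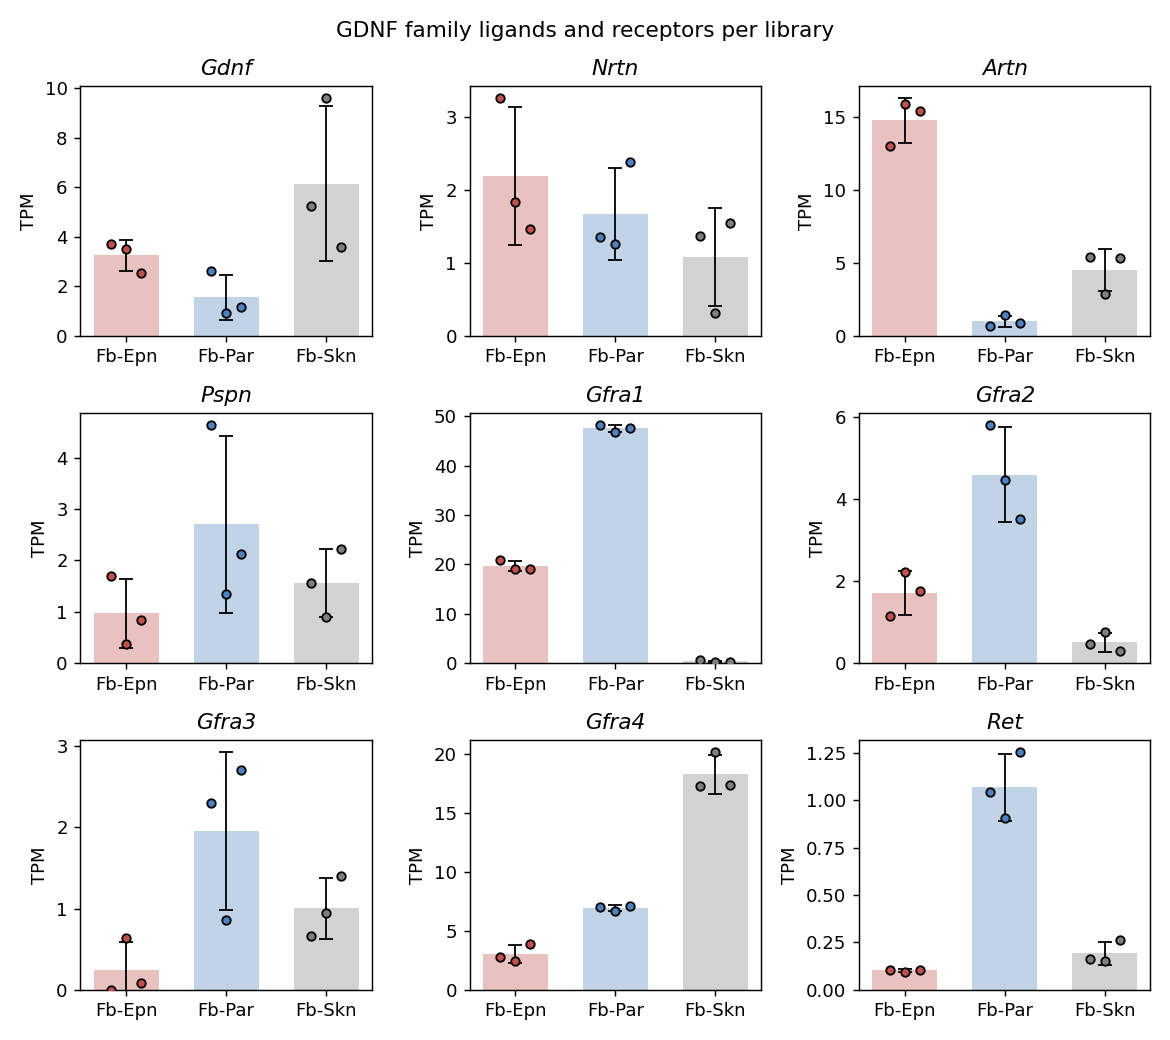
TPM of the 9 GDNF family genes in each library, by fibroblast type, with a separate linear axis per gene. Points are libraries, bars are means and error bars are the SD (n = 3); *Gfra1* lies between 46.8 and 48.3 in Fb-Par and below 0.5 in Fb-Skn, and *Artn* is highest in Fb-Epn.

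*Gdnf*, the founding ligand (chr2:56887987-56910238), had TPM values of 3.70, 3.52 and 2.53 in the Fb-Epn libraries, 2.61, 0.904 and 1.14 in Fb-Par, with 5.24, 9.61 and 3.57 in Fb-Skn. Fb-Par and Fb-Skn did not overlap, while the lowest Fb-Skn library lay between the Fb-Epn libraries. The means were 3.25 ± 0.630, 1.55 ± 0.921 and 6.14 ± 3.12 (SD, n = 3). The log2 fold change was -2.08 (SE 0.486) in Fb-Par against Fb-Skn, with an adjusted p of 0.0020 in edgeR. This call was lost without Fb-Par replicate 2 (log2 fold change -1.82, adjusted p = 0.011 in edgeR), Fb-Par replicate 3 (-1.89, 0.012) or Fb-Skn replicate 2 (-1.62, 0.018), and without Fb-Par replicate 1 the log2 fold change was -2.68. The adjusted p over all alternatives ranged from 0.00023 to 0.018. Neither difference of Fb-Epn passed, with log2 fold changes of -1.04 (SE 0.432) against Fb-Skn and 1.03 (SE 0.526) against Fb-Par and edgeR adjusted p of 0.053 and 0.12. Without Fb-Par replicate 1 the latter was 1.64 (adjusted p = 0.044, edgeR).

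*Artn*, which encodes artemin, a factor for sensory and sympathetic neurons, lies at chr5:136759717-136762986. It measured 13.0, 15.9 and 15.4 TPM in Fb-Epn, 0.685, 1.43 and 0.903 TPM in Fb-Par, with 5.38, 2.84 and 5.32 TPM in Fb-Skn. No library of any type overlapped with another type, and the order was Fb-Epn, Fb-Skn, Fb-Par. In edgeR the log2 fold change of Fb-Epn was 3.88 (SE 0.314, adjusted p = 8.8e-08) against Fb-Par and 1.56 (SE 0.252, adjusted p = 0.00011) against Fb-Skn. Fb-Par was lower than Fb-Skn by a log2 fold change of -2.32 (SE 0.346, adjusted p = 4.3e-05, edgeR). Only 117 tested genes had a larger log2 fold change than *Artn* in Fb-Epn over Fb-Par.

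*Nrtn* (neurturin, chr9:10305470-10306597) and *Pspn* (persephin, chr9:10044756-10045314) were near the limit of detection. *Nrtn* had 1 to 11 counts per library and means of 2.19 ± 0.949 TPM in Fb-Epn, 1.67 ± 0.626 in Fb-Par, compared with 1.08 ± 0.669 in Fb-Skn (SD, n = 3). *Pspn* had 1 to 12 counts per library and means of 0.967 ± 0.668, 2.71 ± 1.73 and 1.55 ± 0.660 TPM (SD, n = 3). From pooled counts of 23 and 11, *Nrtn* was 1.92 times as high in Fb-Epn as in Fb-Skn, with a 95% exact binomial interval of 0.898 to 4.36, so a difference was not detectable at this depth. The *Pspn* ratio was 1.72 (0.787 to 3.98) for Fb-Par over Fb-Skn and 2.95 (1.20 to 8.27) for Fb-Par over Fb-Epn, from pooled counts of 20 and 7 in the latter pair. Of these, Fb-Par replicate 1 alone held 12 and Fb-Epn replicate 1 held 4. These and the exact binomial intervals below cover counting error only, without the spread between libraries. *Pspn* lies within 1 kb of *Alkbh7*, and no gene of the family overlaps another listed gene.

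Summed over the 4 ligands, TPM was 21.2 ± 0.827 in Fb-Epn, 6.93 ± 2.21 in Fb-Par, compared with 13.3 ± 0.544 in Fb-Skn (SD, n = 3). The makeup of that sum also differed. *Artn* made up 69.9% ± 8.60 of it in Fb-Epn, *Gdnf* 45.8% ± 21.9 in Fb-Skn and *Pspn* 36.5% ± 11.9 in Fb-Par (SD, n = 3). The Fb-Skn share of *Gdnf* was uneven, at 38.7%, 70.4% and 28.2% in the 3 libraries, and *Artn* exceeded *Gdnf* in replicates 1 and 3. In Fb-Par, *Pspn* led only in replicate 1, at 12 counts, while *Artn* led in replicate 2 (28.9% against 27.2%) and *Nrtn* in replicate 3 (36.4% against 32.4%).

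**Figure D2:**
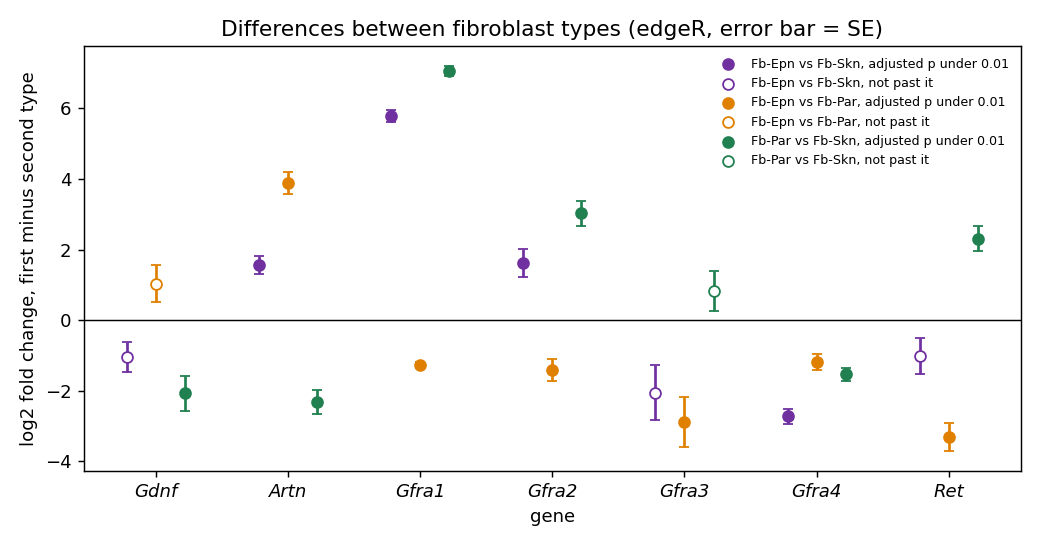
Log2 fold change (first type minus second type, y axis) of the 7 tested genes (x axis) in the 3 comparisons, from edgeR, with error bars of 1 SE. Filled points have an adjusted p under 0.01; *Gfra1* reaches 7.06 in Fb-Par against Fb-Skn, and the 5 receptor genes lie below 0 in Fb-Epn against Fb-Par.

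*Gfra1*, the co-receptor for GDNF, was the most abundant of the 9 genes in both nerve types. Its TPM was 20.9, 19.1 and 19.0 in Fb-Epn, 48.3, 46.8 and 47.6 in Fb-Par, with 0.493, 0.212 and 0.210 in Fb-Skn. The nerve libraries were tight within each type, and the Fb-Skn libraries held only 8, 3 and 3 counts against 661 to 788 in Fb-Par. In edgeR the log2 fold change was 7.06 (SE 0.154, adjusted p = 2.4e-14) in Fb-Par and 5.80 (SE 0.170, adjusted p = 7.2e-13) in Fb-Epn, both against Fb-Skn. Pooled counts of 2157 and 14 gave a ratio of 146 for Fb-Par over Fb-Skn, with a 95% exact binomial interval of 86.9 to 268, and for Fb-Epn the ratio was 60.5 (35.9 to 111). Fb-Epn was lower than Fb-Par by a log2 fold change of -1.26 (SE 0.0809, adjusted p = 6.9e-09, edgeR). Only 81 tested genes had a larger log2 fold change in Fb-Par over Fb-Skn. Without Fb-Skn replicate 1, which held 8 of the 14 counts of its type, it was 7.63 in Fb-Par and 6.37 in Fb-Epn.

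*Gfra2*, the neurturin co-receptor (chr15:52557607-52648972), followed the same order of types. It measured 1.14, 2.21 and 1.76 TPM in Fb-Epn, 5.81, 4.46 and 3.52 TPM in Fb-Par, with 0.460, 0.753 and 0.299 TPM in Fb-Skn. The types did not overlap. In Fb-Par over Fb-Skn the log2 fold change was 3.03 (SE 0.362, adjusted p = 4.9e-06, edgeR). Fb-Epn stood between them, at 1.62 (SE 0.394, adjusted p = 0.0028) over Fb-Skn and -1.41 (SE 0.300, adjusted p = 0.0012) against Fb-Par in edgeR. The call over Fb-Skn was lost without Fb-Epn replicate 2 (log2 fold change 1.38, adjusted p = 0.016 in edgeR), Fb-Skn replicate 1 (1.57, 0.013) or Fb-Skn replicate 3 (1.36, 0.015), within a range of 0.00029 to 0.016 over all alternatives. The call against Fb-Par was lost without Fb-Par replicate 1 (-1.21, 0.011), in a range of 6.7e-05 to 0.011.

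*Gfra3*, the artemin co-receptor (chr18:27491845-27520295), had counts of 0, 8 and 1 in the Fb-Epn libraries, 28, 9 and 30 in Fb-Par, with 8, 10 and 15 in Fb-Skn. Fb-Epn replicate 2 thus held 8 of the 9 counts of its type. Fb-Epn was lower than Fb-Par by a log2 fold change of -2.88 (SE 0.712, adjusted p = 0.0033, edgeR). The pooled count ratio of Fb-Par over Fb-Epn was 7.69 with a 95% exact binomial interval of 3.82 to 17.6. That interval leaves out the spread between libraries, and in replicate 2 the counts were 8 and 9. Without Fb-Epn replicate 2 the log2 fold change was -5.13. The call was lost without Fb-Epn replicate 1 (log2 fold change -2.35, adjusted p = 0.013 in edgeR), Fb-Epn replicate 3 (-2.51, 0.018), Fb-Par replicate 1 (-2.76, 0.014) or Fb-Par replicate 3 (-2.59, 0.018), in a range of 4.9e-05 to 0.018 over all alternatives, and the gene was not tested when only these 6 libraries were used. Against Fb-Skn, Fb-Epn had a log2 fold change of -2.06 (SE 0.782) that did not pass (adjusted p = 0.034, edgeR), but passed without Fb-Epn replicate 2 (-4.31, adjusted p = 0.0030) and without the expression filter (-2.07, adjusted p = 0.0056), in a range of 0.0030 to 0.12. The log2 fold change of 0.82 (SE 0.570) between Fb-Par and Fb-Skn did not pass (adjusted p = 0.23, edgeR).

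*Gfra4*, the persephin co-receptor (chr3:123578997-123581518), ran in the opposite order to *Gfra1* between nerve and skin. It measured 2.76, 2.45 and 3.90 TPM in Fb-Epn, 7.06, 6.69 and 7.16 TPM in Fb-Par, with 17.3, 20.2 and 17.4 TPM in Fb-Skn. The 3 types were fully separated. Both nerve types were below Fb-Skn in edgeR, Fb-Epn at a log2 fold change of -2.72 (SE 0.217, adjusted p = 7.0e-08) and Fb-Par at -1.54 (SE 0.196, adjusted p = 1.0e-05). Fb-Epn was also below Fb-Par, at -1.19 (SE 0.232, adjusted p = 0.00061, edgeR).

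*Ret*, the signalling receptor (chr4:150202058-150244372), was scarce in every type. Its TPM was 0.107, 0.0946 and 0.106 in Fb-Epn, 1.04, 0.906 and 1.26 in Fb-Par, with 0.164, 0.151 and 0.261 in Fb-Skn. Each Fb-Epn library held 3 counts, and the Fb-Par libraries stood above both other types with 24 to 35 counts. With only the Fb-Epn and Fb-Skn libraries *Ret* did not pass the expression filter. It was thus tested through Fb-Par, and its calls are given as descriptions. In edgeR the log2 fold change was 2.31 (SE 0.359, adjusted p = 6.4e-05) in Fb-Par over Fb-Skn and -3.32 (SE 0.396, adjusted p = 5.4e-06) in Fb-Epn against Fb-Par. Pooled counts put Fb-Par 10.5 times above Fb-Epn, with a 95% exact binomial interval of 5.27 to 23.6. Fb-Epn and Fb-Skn did not pass the test, with a log2 fold change of -1.01 (SE 0.513, adjusted p = 0.12, edgeR), and their ratio of 0.516 had an interval of 0.201 to 1.24.

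The TPM of *Gfra1* was 180.1 to 202 times that of *Ret* in the Fb-Epn libraries and 46.2, 51.7 and 37.9 times in Fb-Par. In Fb-Skn the ratios were 3.00, 1.41 and 0.804. The Fb-Epn ratios rest on 3 *Ret* counts per library, and in Fb-Skn both genes had few counts. The 4 co-receptors together reached 24.7 ± 0.239 TPM in Fb-Epn, 61.1 ± 2.32 in Fb-Par, compared with 20.1 ± 1.77 in Fb-Skn (SD, n = 3). *Gfra1* made up 79.8% ± 3.96 and 77.9% ± 1.76 of that sum in Fb-Epn and Fb-Par, while *Gfra4* made up 91.0% ± 0.781 of it in Fb-Skn (SD, n = 3). The totals of Fb-Epn (24.4 to 24.8 in the libraries) and Fb-Skn (18.9 to 22.1) did not overlap, and their leading genes differed. *Artn* exceeded its co-receptor *Gfra3* in each Fb-Skn library, by 8.14, 3.00 and 3.78 times in TPM, whereas in Fb-Par the same ratio was 0.298, 1.67 and 0.334. *Artn* was also above *Gfra3* in each Fb-Epn library, where the 0, 8 and 1 counts of *Gfra3* are too few for a stable ratio.

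The genes whose pattern over the 9 libraries was most like that of a family gene were found by Pearson's r of log2(TPM + 1). The libraries form 3 clusters by type, so each r mainly reflects the order of the types and carries no p. For *Gfra1* these were *Erbb3* (r = 0.9988), *Ebf2* (0.9987) and *Igfbp6* (0.9986), and for *Gfra2* they were *Tm4sf4*, *Ptk2* and *Gatad1* (0.9839 to 0.9866). *Artn* was closest to *Kif14*, *Trim29* and *Arf6* (0.9892 to 0.9896), and the genes close to *Gfra4* included *Cercam* (0.9927) and *RGD1559896* (0.9923). *Ret* was closest to *Reep3*, *Serinc3* and *Pclo* (0.9903 to 0.9916). Values ran from 0.9426 to 0.9594 for *Gdnf* (*AABR07044596.1*, *Ctu2* and *Vxn*) and from 0.9471 to 0.9785 for *Gfra3* (*Rgmb*, *Ciz1* and *Rab6b*).

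All types carried the fibroblast markers, 7 of 7, whose summed TPM averaged 35807 for Fb-Epn, 29653 for Fb-Par and 36093 for Fb-Skn, led by *Col1a1*. Single fibroblast markers ran both ways. In Fb-Epn 2 were higher and 4 lower than in Fb-Skn, and 3 higher and 4 lower than in Fb-Par. In Fb-Par 4 were higher and 3 lower than in Fb-Skn. Of all tested genes, 43.9%, 38.8% and 45.6% were called in these comparisons. In the paper, labelling of such cultures for the Schwann cell protein S100b was described as negligible. Most Schwann cell markers moved with *Gfra1*, and their part in its difference was not tested. Of 10 such markers 9 were found, and their TPM summed to 194, 204 and 200.1 in the Fb-Epn libraries, 270.0, 277 and 276 in Fb-Par and 12.7, 13.2 and 10.5 in Fb-Skn. *S100b* was the most abundant, and *Sox10*, *Erbb3*, *Cdh19* and *Gfap* were among those with 0 counts in every Fb-Skn library. In edgeR, 8 of the 9 were higher in Fb-Epn and 9 of 9 in Fb-Par than in Fb-Skn, and 7 were lower in Fb-Epn than in Fb-Par. The same 3 calls were made for 3052, 3077 and 2469 of all 13273 tested genes. *Sox10*, a transcription factor of Schwann cells, had a log2 fold change of -1.08 (adjusted p = 3.2e-07, edgeR) in Fb-Epn against Fb-Par, where *Gfra1* had -1.26. There *S100b* (log2 fold change 0.13, adjusted p = 0.11) and *Gfap* (-0.81, adjusted p = 0.066) did not pass in edgeR. Against a floor of 3 counts per library in Fb-Skn, *Sox10* was at least 66.4-fold higher in Fb-Epn and at least 140.1-fold higher in Fb-Par, and *Erbb3* at least 63.5-fold and 138-fold higher.

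Other marker lists followed other orders. Perineurial markers (5 of 5 found, led by *Slc2a1*, or by *Tjp1* in Fb-Par) summed to 210.9, 210.6 and 216 TPM in the Fb-Epn libraries, 87.1, 91.0 and 94.7 in Fb-Par and 113, 125 and 121 in Fb-Skn, with *Lypd2* at 0 throughout and *Cldn1* at 0 in Fb-Skn. *Slc2a1* had the same order, and of the 3 tested, Fb-Epn exceeded Fb-Skn for 2 and Fb-Par for 3, and Fb-Skn exceeded Fb-Par for 2. The same calls were made for 3052, 2676 and 2975 of all 13273 tested genes. Between the nerve types *Cldn1* ran against the perineurial sum. It measured 0.181, 0 and 0.119 TPM in the Fb-Epn libraries and 0.221, 0.447 and 0.303 TPM in Fb-Par. With 21 counts over all libraries, *Cldn1* was not tested. Smooth muscle and pericyte markers (5 of 5, led by *Cnn1*, with *Rgs5* at 0 in Fb-Skn) summed to 258 ± 5.71, 587 ± 9.99 and 685 ± 11.5 TPM (SD, n = 3), with the types in the same order. The order of that sum between Fb-Par and Fb-Skn was that of *Cnn1*, since 3 of the 5 were higher and 1 lower in Fb-Par. Fb-Epn, lowest in the sum, was higher than Fb-Skn for 2 of the 5 and lower for 3. Against Fb-Par it was higher for 1 and lower for 4. Of all tested genes, 43.9% were called in Fb-Epn against Fb-Skn and 38.8% in Fb-Epn against Fb-Par. In Fb-Par against Fb-Skn 45.6% were called, and these shares stand beside every marker count in this paragraph. Whether perineurial, smooth muscle or pericyte cells bear on *Artn* or *Gfra4* was not tested. Macrophage markers (6 of 6, led by *Cd68* in Fb-Epn, *C1qa* in Fb-Par and *Cd14* in Fb-Skn) summed to 314 ± 16.6, 88.7 ± 1.11 and 25.9 ± 0.884 TPM (SD, n = 3), and endothelial markers (5 of 6, led by *Tek*) to 14.7 to 15.5, 10.4 to 11.6 and 0.938 to 1.57 TPM in the libraries of those types, with *Cdh5* and *Emcn* at 0 in Fb-Skn. Between Fb-Epn and Fb-Par *Tek* did not follow the endothelial sum, at 8.37 and 10.2 TPM (log2 fold change -0.27, adjusted p = 0.065, edgeR). Neuron markers (8 of 8) summed to 63.7 ± 2.28, 114.9 ± 3.05 and 102 ± 5.25 TPM (SD, n = 3), most of it *Tubb3*, while *Elavl3* was at 0 throughout, *Rbfox3* and *Elavl4* at 0 in Fb-Epn, and *Snap25* at 0 in Fb-Epn and Fb-Skn. The other 2 tested neuron markers ran against *Tubb3* and were higher in Fb-Epn than in each other type. Keratinocyte markers (4 of 5) summed to 2.32 ± 0.205, 3.56 ± 0.382 and 3.66 ± 0.673 TPM (SD, n = 3), led by *Krt10*, with *Krt1* at 0 throughout, *Krt5* at 0 in both nerve types and *Krt14* at 0 in Fb-Epn. *Krt10* averaged 3.53 TPM in Fb-Par and 2.51 in Fb-Skn, and none of its differences passed. *Krt14* added 1.11 TPM to the Fb-Skn sum.

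Receptors that can take up GDNF without RET were listed together with related receptors and *Gdf15*, the ligand of *Gfral*. *Ncam1*, a neural adhesion molecule, measured 303, 294 and 303 TPM in Fb-Epn, 48.3, 48.0 and 48.2 TPM in Fb-Par, with 171, 194 and 182 TPM in Fb-Skn. Its log2 fold change was 2.65 (adjusted p = 5.2e-16) in Fb-Epn over Fb-Par and -2.07 (adjusted p = 5.0e-15) in Fb-Par against Fb-Skn in edgeR. Fb-Par, highest for *Gfra1*, was thus lowest for *Ncam1*, and the TPM ratio of *Ncam1* to *Gfra1* was 14.5 to 15.9 in the Fb-Epn libraries, 1.00 to 1.03 in Fb-Par and 347 to 917 in Fb-Skn, where *Gfra1* had few counts. *Gas1*, a surface protein related to the co-receptors, ran in the same order as *Ncam1*, at 104 ± 3.41, 20.7 ± 3.36 and 76.8 ± 1.92 TPM (SD, n = 3). *Sdc3*, syndecan 3, named here after its values were seen, had 47.2 ± 0.893, 99.7 ± 1.03 and 21.3 ± 1.33 TPM (SD, n = 3), the order of *Gfra1*. *Sort1*, a sorting receptor, was lowest in Fb-Epn and highest in Fb-Skn at 18.5 ± 0.686 and 55.4 ± 0.417 TPM (SD, n = 3). In this list of 7 genes, of which *Sorl1* was not analysed here and *Gfral* was listed at 0, 4 receptors and *Gdf15* were tested, with 3 higher and 1 lower in Fb-Epn than in Fb-Skn, 2 and 2 in Fb-Epn against Fb-Par, and 1 and 3 in Fb-Par against Fb-Skn. *Gdf15*, also named after its values were seen, was the gene not called in any of them. In these comparisons 43.9%, 38.8% and 45.6% of all tested genes were called, which also stands beside the counts of each list below.

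Downstream of RET, the list of adaptors and kinases had small median differences. Of 24 genes 21 were tested, and the median log2 fold change was 0.06 in Fb-Epn against Fb-Skn, -0.07 in Fb-Epn against Fb-Par and 0.11 in Fb-Par against Fb-Skn, beside medians of all tested genes between -0.01 and 0.00. The calls were 7 higher and 4 lower, 5 and 6, and 10 and 2 in those comparisons, where 43.9%, 38.8% and 45.6% of all tested genes were called. For the down-regulators, such as ubiquitin ligases, sprouty proteins and phosphatases, 9 of 10 were tested and the medians were 0.62, -0.01 and 0.99. Of these, 7 were higher and 0 lower in Fb-Epn than in Fb-Skn, 2 and 2 in Fb-Epn against Fb-Par, and 8 and 0 in Fb-Par against Fb-Skn, beside the same shares of all tested genes.

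The 8 genes that respond to RET and ERK signalling, all tested, split by gene. *Etv1*, a transcription factor, measured 1.47, 1.22 and 1.74 TPM in Fb-Epn, 10.5, 11.1 and 11.9 TPM in Fb-Par, with 2.23, 1.58 and 1.57 TPM in Fb-Skn, high in Fb-Par as *Ret* was. Its log2 fold change in Fb-Epn against Fb-Par was -2.91 (adjusted p = 6.8e-10, edgeR). Whether the level of *Etv1* depends on *Ret* in these cells was not tested. The related *Etv4* was instead highest in Fb-Skn, at 12.3 ± 0.921 TPM against 4.01 ± 0.454 in Fb-Epn (SD, n = 3), with a log2 fold change of -1.75 in Fb-Epn (adjusted p = 2.9e-07, edgeR). *Dusp4*, an ERK phosphatase, was highest in Fb-Epn, at 16.4 ± 0.652 TPM against 3.77 ± 1.29 in Fb-Par (SD, n = 3), a log2 fold change of 2.13 (adjusted p = 8.1e-08, edgeR). In all, 4 were higher and 1 lower in Fb-Epn than in Fb-Skn, 4 and 3 in Fb-Epn against Fb-Par, and 3 and 1 in Fb-Par against Fb-Skn, beside 43.9%, 38.8% and 45.6% of all tested genes called either way. Genes of ligand processing and heparan sulfate synthesis, 13 of 13 tested, had 9 higher and 2 lower in each nerve type against Fb-Skn, and 4 and 3 in Fb-Epn against Fb-Par, beside the same shares.

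The last list held 18 regulators of *Gdnf* or *Ret* transcription known from kidney and gut, of which 12 were tested and *Pax2* was among those listed at 0. In each comparison with Fb-Skn, 9 were higher and 3 lower in the nerve type, and in Fb-Epn against Fb-Par 4 were higher and 7 lower. Of all tested genes, 43.9% were called in Fb-Epn and 45.6% in Fb-Par against Fb-Skn, and 38.8% between the nerve types. The medians were 1.72 and 2.37 against Fb-Skn and -0.70 in Fb-Epn against Fb-Par. Among the 12 tested regulators, *Sox10* and *Hoxc11* were at 0 in Fb-Skn, the latter at least 34.7-fold higher in Fb-Epn and at least 25.3-fold higher in Fb-Par than the floor. *Six2* and *Six4* were highest in Fb-Epn and lowest in Fb-Skn. *Foxc2* peaked in Fb-Par at 59.2 ± 3.05 TPM (SD, n = 3), as did *Foxc1* and *Sall1*, with log2 fold changes in Fb-Epn against Fb-Par of -2.84, -1.25 and -3.58 (adjusted p = 4.5e-12, 3.1e-09 and 4.5e-07, edgeR). *Gata3* was lowest in Fb-Par and highest in Fb-Skn, with 4.19 ± 0.523, 0.535 ± 0.267 and 8.17 ± 0.690 TPM (SD, n = 3). The means of *Gdnf* had that order, but neither of its Fb-Epn differences passed. *Hand2* and *Slit2* rose in the order of *Gfra4*, with *Hand2* at 2.18 ± 0.472, 10.7 ± 0.980 and 24.3 ± 1.84 TPM and *Slit2* at 23.6 ± 1.01, 39.6 ± 0.842 and 86.0 ± 4.61 TPM (SD, n = 3).

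Promoter sequence from RefSeq (build GRCr8, 250 bases before to 50 after the gene start) was matched for 8 of the 9 genes, and *Gfra2* had none. Both strands were searched for TATAAA, held by 14.2% of 33469 promoters, GGGCGG (GC box, 33.1%), TGANTCA (AP-1, 7.33%), ACAAAG or ACAATG (SOX, 29.1%) and CACGTG (E-box, 6.42%). GGGCGG matched 2 times in *Artn*, 2 in *Gfra1* and 3 in *Gfra3*, TATAAA matched 1 time in *Gdnf*, and the other letters were in none of the 8. A match is a description of the sequence. GC content ranged from 50.7% in *Gdnf* to 74.0% in *Ret*, beside a median of 51.7% over all promoters. The sequences of *Gdnf* and of *Artn*, *Gfra1* and *Gfra4*, which were called in all 3 comparisons, are shown to set a promoter with TATAAA beside ones with GGGCGG and 1 with neither, with matches in capitals.
*Gdnf* (chr2:58621077-58621376, plus strand): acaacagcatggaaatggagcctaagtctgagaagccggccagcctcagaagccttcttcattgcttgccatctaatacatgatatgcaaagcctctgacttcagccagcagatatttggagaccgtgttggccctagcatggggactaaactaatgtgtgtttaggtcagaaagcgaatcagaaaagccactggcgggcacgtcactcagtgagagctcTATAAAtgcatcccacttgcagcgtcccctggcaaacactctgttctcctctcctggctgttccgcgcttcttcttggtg
*Artn* (chr5:136753408-136753707, minus strand): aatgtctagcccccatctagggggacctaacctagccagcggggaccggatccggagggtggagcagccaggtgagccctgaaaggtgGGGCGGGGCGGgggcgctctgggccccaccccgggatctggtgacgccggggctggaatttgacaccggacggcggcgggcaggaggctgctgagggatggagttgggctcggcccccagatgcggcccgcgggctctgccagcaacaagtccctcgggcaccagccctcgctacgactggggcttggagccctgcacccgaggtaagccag
*Gfra1* (chr1:267555762-267556061, minus strand): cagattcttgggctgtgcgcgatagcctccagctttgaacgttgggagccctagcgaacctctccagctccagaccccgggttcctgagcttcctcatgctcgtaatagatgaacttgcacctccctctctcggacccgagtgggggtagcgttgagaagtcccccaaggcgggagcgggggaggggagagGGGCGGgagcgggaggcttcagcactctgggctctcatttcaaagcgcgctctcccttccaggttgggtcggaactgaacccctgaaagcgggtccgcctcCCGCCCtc
*Gfra4* (chr3:138710907-138711206, minus strand): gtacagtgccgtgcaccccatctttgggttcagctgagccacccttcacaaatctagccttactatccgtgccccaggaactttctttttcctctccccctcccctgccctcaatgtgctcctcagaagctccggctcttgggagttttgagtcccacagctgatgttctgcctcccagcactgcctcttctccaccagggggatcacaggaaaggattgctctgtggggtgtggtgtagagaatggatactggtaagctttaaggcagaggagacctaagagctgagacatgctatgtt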

How the data were processed

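RNA of 9 fibroblast samples was sequenced as paired ends of 150 bases from directional poly(A) libraries. The submitters' processing notes name FastQC 0.11.7, Trimmomatic 0.38, HISAT2 2.1.0 and featureCounts 1.6.3 with rn6; the annotation release and strand setting are not given in the sources used here. The authors deposited raw counts per gene, which were used for the tests. The authors deposited TPM of the same genes, which were used for levels. A deposited FPKM table was not used.

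Counts were fitted in R 4.3.3 with edgeR 4.0.16 (TMM, default filter, quasi-likelihood F test, 9 libraries in 1 model) and adjusted by Benjamini-Hochberg over 13273 genes in each comparison. The common biological coefficient of variation in edgeR, the spread within types beyond counting error, was 8.25%. It is 1 value for all tested genes, and single genes can vary more. Code was tested on simulated data. DESeq2 1.42.0 and limma 3.58.1 were alternatives, as were other normalizations, filters, thresholds, a replicate block, only the 6 libraries compared, and each library left out. Tables used Python 3.11.15, pandas 2.3.3, numpy 2.4.6 and scipy 1.17.1.

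Besides the 9 family genes, the text names genes of hand-written pathway lists past an adjusted p of 0.01 and a log2 fold change beyond 1 (at most 5 per comparison and direction), the 3 genes most alike each tested family gene, and of each marker list the most abundant gene and those at 0; not every gene under these rules is named. Members and lists were chosen with earlier results of these data known. Symbols without a match were not analysed here.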

Additional observations from a re-analysis of the deposited data

How the results depend on the processing

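Over 377 alternative values of single family genes, 364 kept their direction and their side of the adjusted p of 0.01, 11 no longer passed, 2 newly passed and 0 changed sign. All 11 lost calls came from leaving out 1 library, and concerned *Gdnf*, *Gfra2* and *Gfra3*. With only the 6 libraries of Fb-Epn and Fb-Par, *Gfra3* and *Gdnf* did not pass the expression filter, and 5 of 5 tested family genes passed in place of 6 of 7, so the *Gfra3* call there was made only with the Fb-Skn libraries in the filter and fit. With only the 6 libraries of Fb-Epn and Fb-Skn, *Ret* and *Gfra3* did not pass the filter, and 4 of 5 tested family genes passed. The p-values of *Ret* and *Gfra3* there thus needed the Fb-Par libraries in the filter and fit. Under a filter of 10 or more counts per library throughout, only *Gfra4* was tested, so that 1 family gene passed in each of the 3 comparisons, in place of 4, 6 and 6. With a log2 fold change beyond 2 also required, 2 passed in Fb-Epn against Fb-Skn and 3 in Fb-Epn against Fb-Par. Leaving out single libraries, the number ranged from 3 to 4 in Fb-Epn against Fb-Skn, from 4 to 6 in Fb-Epn against Fb-Par and from 5 to 6 in Fb-Par against Fb-Skn. Deviations from the type means correlated at -0.104 to 0.050 over 9 pairs of equal replicate number and at -0.061 to 0.123 over 18 others. Skin came from another rat, so only pairs of Fb-Epn with Fb-Par could share an animal. Those of equal number were at -0.022, -0.007 and -0.095. Which libraries share a rat cannot be told from these values. With the replicate number as a block, the counts were 4, 6 and 6. On the limma scale of log2(TPM + 1), the median of all genes shifted by 0.13 in Fb-Epn and 0.12 in Fb-Par against Fb-Skn, and with a pseudocount of 0.1 by 0.14 in both, without a change of direction in any family gene. Log2 fold changes were smaller in size on log2(TPM + 1). That of *Ret* in Fb-Epn against Fb-Par was -0.90 in place of -3.32, and with the pseudocount of 0.1 it was -2.52. That of *Gfra1* in Fb-Par against Fb-Skn was 5.22 and 6.95 in place of 7.06. Low counts limit *Gdnf*, *Nrtn*, *Pspn*, *Gfra3* and *Ret*. They also limit *Artn* in Fb-Par (5 to 9 counts per library) and *Gfra1* and *Gfra2* in Fb-Skn (3 to 8 and 4 to 10).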
